A study of Mus musculus with 10 samples.

Results

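The genes described here are 10 members of the interleukin-6 (IL-6) family and its receptors in stromal fibroblasts: the ligand genes Il6, Il11, Lif, Clcf1 and Osm, the receptor genes Il6st, Il6ra, Lifr and Osmr, and Socs3, which encodes a feedback inhibitor. They were taken by name, with earlier results of these data known, from the 19938 genes with a probeset of their own. Each was read from its probeset with the highest mean over the 10 arrays, and all 10 were measured. The cells were wild type mouse embryonic fibroblasts (MEFs), irradiated with 1000 rad so that they no longer divided and harvested on day 9, and the question was how such stroma responds to leukemia cells under drug treatment. The leukemia (ALL) cells were a murine lymphoblast line from a Bcr/Abl transgenic mouse, pre-B by the labels and pro-B by the study's text, kept above a Transwell membrane, and nilotinib, an Abl kinase inhibitor, was given at 16 nM. There were 3 arrays of MEFs + ALL + nilotinib, 1 of MEFs + ALL + DMSO, 3 of MEFs + nilotinib and 3 of MEFs + DMSO, the last given only the drug's solvent. MEFs of every group were irradiated and grown in medium that held murine IL-3 by the labels. The methods describe triplicates as separate dishes and state that other MEFs + ALL + DMSO samples were contaminated by ALL cells, which left the 1 array of that group. Since the replicates were dishes, p-values reflect how far dishes of a group vary. A single leukemia line was used, and whether the dishes came from separate MEF isolations is not stated.

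Cytokines of this family signal through receptor complexes that share gp130, the product of Il6st. IL-6 and IL-11 first bind their own alpha receptors, and cardiotrophin-like cytokine that of CNTF, before gp130 joins. LIF and cardiotrophin-like cytokine signal through gp130 paired with the LIF receptor, and oncostatin M in the mouse mainly through gp130 paired with its own receptor. Active complexes engage JAK kinases and STAT3, which induces Socs3, and SOCS3 binds gp130 and shuts the signal down. Fibroblasts are a known source of IL-6 and LIF, and Il6 itself is induced through NF-kB, C/EBP and AP-1 factors.

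Because Il6 and Osmr lay higher in co-cultured MEFs and Socs3 is the feedback gene of the pathway, the 250 bases before the start of these 3 genes are shown, from RefSeq (GRCm38.p6), 5′ to 3′ on the strand of the gene. Capitals mark matches, on either strand, to the NF-kB motif (GGGA and CC with any 4 bases between), the C/EBP motif TTNNGNAA, the AP-1 motif TGANTCA and the STAT motif TTCNNNGAA.
Il6 (chr5:30012864-30013113, plus strand): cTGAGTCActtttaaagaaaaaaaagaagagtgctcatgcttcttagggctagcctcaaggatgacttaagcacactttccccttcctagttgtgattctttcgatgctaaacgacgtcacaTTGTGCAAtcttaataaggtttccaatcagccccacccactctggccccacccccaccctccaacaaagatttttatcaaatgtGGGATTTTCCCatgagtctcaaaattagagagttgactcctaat
Osmr (chr15:6874314-6874563, minus strand): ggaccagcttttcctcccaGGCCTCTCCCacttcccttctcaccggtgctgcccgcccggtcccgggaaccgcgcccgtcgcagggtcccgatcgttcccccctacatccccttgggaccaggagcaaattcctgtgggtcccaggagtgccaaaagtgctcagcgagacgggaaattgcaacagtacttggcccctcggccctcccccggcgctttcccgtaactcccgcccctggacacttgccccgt
Socs3 (chr11:117969367-117969616, minus strand): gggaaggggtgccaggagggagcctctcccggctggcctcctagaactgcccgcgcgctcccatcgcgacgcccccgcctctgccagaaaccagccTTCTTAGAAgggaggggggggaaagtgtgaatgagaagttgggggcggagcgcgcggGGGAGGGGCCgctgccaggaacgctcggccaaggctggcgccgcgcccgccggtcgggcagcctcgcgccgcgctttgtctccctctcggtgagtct
Counted from the start of the gene, Il6 held 2 overlapping NF-kB matches at positions -44 to -34, a C/EBP match at -128 to -121 and an AP-1 match at -249 to -243. Osmr held a single NF-kB match, and Socs3 an NF-kB and a STAT match. Promoter entries were found for 8 of the 10 genes, and Clcf1 and Osm are named only. The NF-kB motif was present for 6 of the 8 (Il6, Il6ra, Lif, Lifr, Osmr and Socs3), against 19.7% of all 27025 genes with windows of the same length. The AP-1 motif was present for Il6, Il11 and Lif (7.82% of all genes), the C/EBP motif for Il6 and Il6ra (40.3%) and the STAT motif for Socs3 (8.13%). These are matches of letters, not measured binding.

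Values are log2 signals of RMA-normalized probesets, and differences are log2 differences between group means, tested with limma over all 35557 probesets. Calls, in either direction, are made at a Benjamini-Hochberg adjusted p under 0.05. The median signal of an array lay between 6.94 and 7.01. In a principal component analysis of all probesets, MEFs + ALL + nilotinib replicate 2 stood apart on the second component, which held 18.9% of the variance. That array lay at 50.0, against -17.0 to 13.1 for the other arrays, and the cause was not tested. Fibroblast genes such as Col1a1, Vim and Pdgfra made up a marker list of 12 whose mean log2 signal was between 11.68 and 11.89 on every array. The MEFs + ALL + DMSO array also carried transcripts of leukocytes. Its 15 measured pro-B and B cell markers summed to a linear signal of 6955, against 1489 to 1657 in MEFs + ALL + nilotinib, 1494 to 1590 in MEFs + nilotinib and 1541 to 1626 in MEFs + DMSO. Its 14 pan-leukocyte markers summed to 14957, against 5540 to 6283 in MEFs + ALL + nilotinib, 4723 to 5599 in MEFs + nilotinib and 4777 to 5295 in MEFs + DMSO. Against MEFs + DMSO, 11 of the 15 and 13 of the 14 markers were called higher on that array, Igll1 and Blk of the B lineage among them, while Blnk, Rag2, Cd22 and Ighm were not called. In MEFs + ALL + nilotinib, 0 of the 15 B cell markers were called (0 at an unadjusted p under 0.05), and 1 of the 14 pan-leukocyte markers was called higher. Macrophage markers, 14 genes, summed to 7872 to 8665 in MEFs + ALL + nilotinib, 7585 on the MEFs + ALL + DMSO array, 7104 to 8514 in MEFs + nilotinib and 7188 to 8054 in MEFs + DMSO, and 0 of them were called in co-culture with either treatment (2 at an unadjusted p under 0.05 in each).

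**Figure D1:**
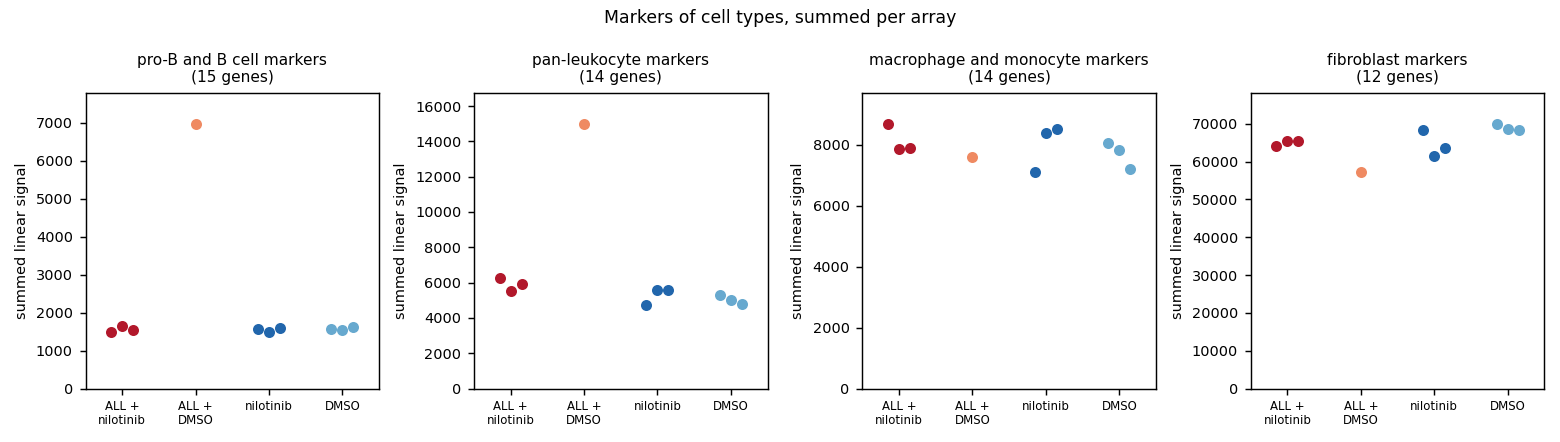
Summed linear signal of 4 marker lists, with a point for each array and the groups along the horizontal axis. The lone MEFs + ALL + DMSO array stands apart for the pro-B and B cell list, at 6955, and for the pan-leukocyte list, at 14957.

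Osmr, the gene of the oncostatin M receptor, was the only one of the 10 called in MEFs + ALL + nilotinib over MEFs + DMSO. These groups differ in both ALL cells and drug. The call was lost in 8 of 9 fits that left out a single array, and Osmr was not called over MEFs + nilotinib (limma adjusted p = 0.301). Il6 and Clcf1, a ligand of the CNTF receptor complex, missed the threshold narrowly, Il6 with the largest difference of the 10 genes. The receptor genes Il6st and Lifr lay higher on every co-cultured array than on every MEFs + DMSO array, and the ligand gene Lif lay lower. Il11, Osm and Il6ra differed by 0.12 or less on the log2 scale. Over MEFs + DMSO, limma called 1 of the 10 genes, where 0.627% of all probesets were called, and 7 had an unadjusted p under 0.05 (6 higher and 1 lower, where 9.5% and 6.72% of all probesets were). Arrays of the groups did not overlap for 7 genes, 5 of them higher (14.1% of all probesets) and 2 lower (10.6%), with Osm lower by only 0.05. The median difference of the 10 genes was 0.21, and that of all probesets was -0.0042.

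Il6 (probeset 10520452) encodes the founding ligand of the family. Its log2 signals were 8.19, 7.51 and 7.61 in MEFs + ALL + nilotinib, 7.84 in MEFs + ALL + DMSO, 6.98, 7.48 and 7.29 in MEFs + nilotinib, and 6.83, 6.83 and 6.62 in MEFs + DMSO. Every co-cultured array lay above every array of MEFs alone, and the MEFs + nilotinib arrays lay between the co-cultures and MEFs + DMSO with no overlap. In MEFs + ALL + nilotinib the mean of 7.77 ± 0.37 stood against 6.76 ± 0.12 in MEFs + DMSO (SD, n = 3 each), a ratio of mean linear signals of 2.05. The log2 difference was 1.01 (SE 0.19, limma adjusted p = 0.0663). Over MEFs + nilotinib, at 7.25 ± 0.25 (SD, n = 3), it was 0.52 (limma adjusted p = 0.443), and in MEFs + nilotinib over MEFs + DMSO it was 0.49 (limma adjusted p = 0.41). In the order MEFs + ALL + DMSO, MEFs + ALL + nilotinib, MEFs + nilotinib and MEFs + DMSO, from high to low, no neighbouring groups were called different. In these bulk samples more cells that express a gene and more RNA per cell cannot be told apart.

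Clcf1 (probeset 10460385) encodes cardiotrophin-like cytokine factor 1. It had log2 signals of 8.59, 8.70 and 8.54 in MEFs + ALL + nilotinib, 8.49 in MEFs + ALL + DMSO, 8.45, 8.42 and 8.36 in MEFs + nilotinib, and 8.31, 8.20 and 8.28 in MEFs + DMSO. The 4 groups followed each other without overlap. Over MEFs + DMSO the difference in MEFs + ALL + nilotinib was 0.35 (SE 0.07, limma adjusted p = 0.0675), and over MEFs + nilotinib it was 0.20 (limma adjusted p = 0.39).

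Lif (probeset 10373918), whose product keeps mouse embryonic stem cells undifferentiated, had log2 signals of 8.90, 8.76 and 8.79 in MEFs + ALL + nilotinib, 8.12 in MEFs + ALL + DMSO, 9.06, 9.13 and 9.15 in MEFs + nilotinib, and 9.10, 9.13 and 8.97 in MEFs + DMSO. The co-cultured arrays were lower than all 6 arrays of MEFs alone, and the MEFs + ALL + DMSO array was the lowest. In MEFs + ALL + nilotinib the difference was -0.25 over MEFs + DMSO (SE 0.07, limma adjusted p = 0.147) and -0.30 over MEFs + nilotinib (limma adjusted p = 0.208).

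Il11 (probeset 10559667), a cytokine gene of stromal cells, gave 7.49, 7.44 and 7.48 in MEFs + ALL + nilotinib, 6.99 in MEFs + ALL + DMSO, 7.41, 7.67 and 7.64 in MEFs + nilotinib, and 7.58, 7.44 and 7.50 in MEFs + DMSO. The 9 arrays other than MEFs + ALL + DMSO overlapped across groups, and that array was the lowest. Osm (probeset 10373912), the gene of oncostatin M, is known mainly from leukocytes. It gave 5.86, 5.84 and 5.82 in MEFs + ALL + nilotinib, 6.42 in MEFs + ALL + DMSO, 5.72, 5.77 and 5.82 in MEFs + nilotinib, and 5.88, 5.88 and 5.90 in MEFs + DMSO. Its signal was in the range of genes that fibroblasts do not use: of 1194 olfactory and vomeronasal receptor genes, whose median log2 signal was 4.51 and whose 95th percentile was 6.29, 10.6% had a higher mean than Osm. For each of the other 9 genes this share was 0.419% or less.

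**Figure D2:**
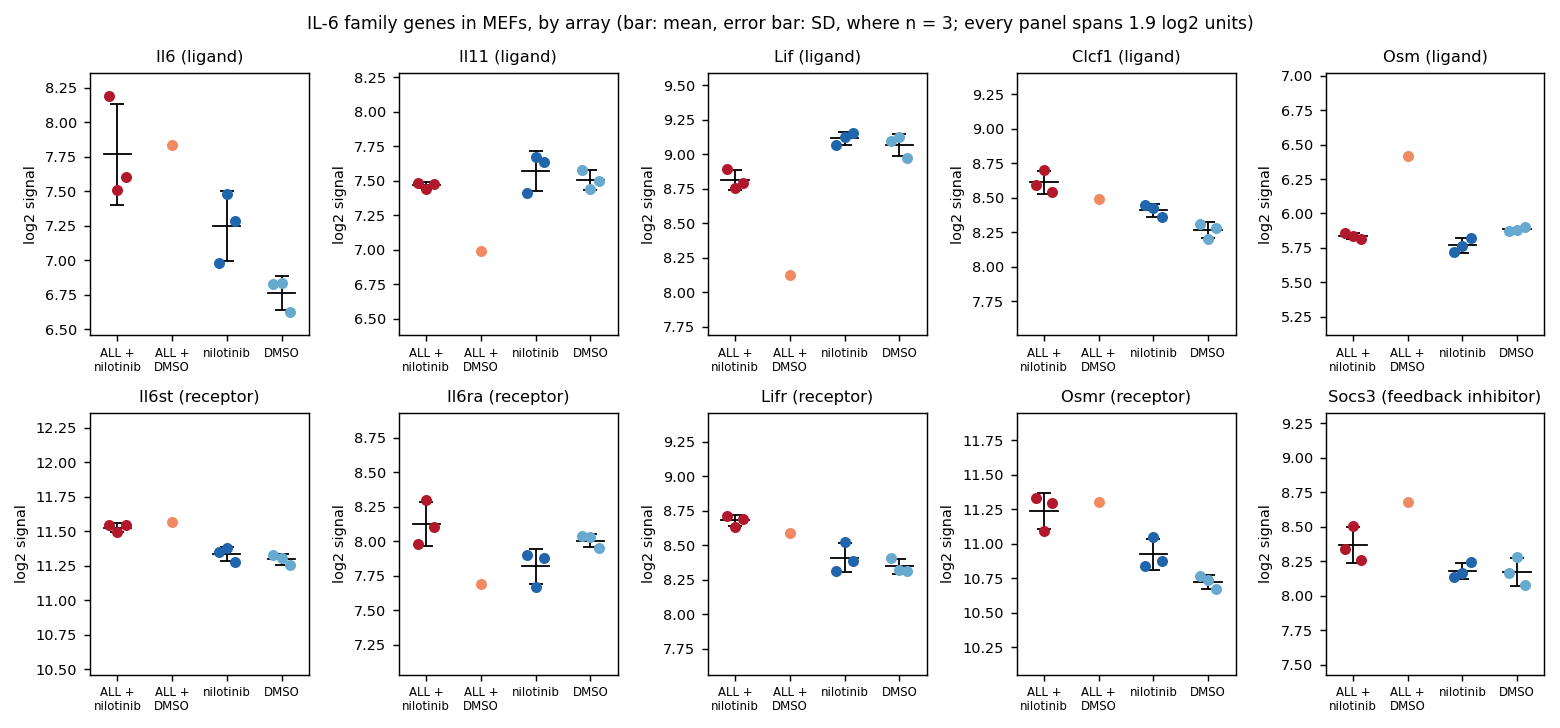
Log2 signal of the 10 genes on each array, with the groups along the horizontal axis, points for arrays, and bars and error bars for the mean and SD where a group has 3 arrays. Il6, Clcf1, Il6st, Lifr and Osmr are higher on all 4 co-cultured arrays than on all 3 MEFs + DMSO arrays, and the MEFs + ALL + DMSO array is extreme for Il11, Lif, Osm and Socs3.

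Osmr (probeset 10427471) had log2 signals of 11.33, 11.09 and 11.30 in MEFs + ALL + nilotinib, 11.31 in MEFs + ALL + DMSO, 10.84, 11.05 and 10.88 in MEFs + nilotinib, and 10.77, 10.74 and 10.67 in MEFs + DMSO. The co-cultured arrays were all above the arrays of MEFs alone, by 0.04 at the closest, and MEFs + nilotinib lay above MEFs + DMSO without overlap. The mean of 11.24 ± 0.13 in MEFs + ALL + nilotinib stood against 10.73 ± 0.05 in MEFs + DMSO (SD, n = 3 each), a rise of 0.51 (SE 0.09, limma adjusted p = 0.0488) or 1.43 times by mean linear signal. This call was lost in 8 of the 9 fits that left out a single array, with adjusted p from 0.0446, without MEFs + ALL + nilotinib replicate 2, to 0.199, without MEFs + DMSO replicate 3, and when only the arrays of both groups were fitted (adjusted p = 0.0861). Over MEFs + nilotinib, at 10.92 ± 0.11 (SD, n = 3), the difference was 0.32 (limma adjusted p = 0.301), and in MEFs + nilotinib over MEFs + DMSO it was 0.20 (limma adjusted p = 0.449).

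Il6st (probeset 10407173), the gene of the shared chain gp130, had 11.55, 11.49 and 11.54 in MEFs + ALL + nilotinib, 11.57 in MEFs + ALL + DMSO, 11.35, 11.38 and 11.28 in MEFs + nilotinib, and 11.33, 11.31 and 11.26 in MEFs + DMSO. Co-cultured arrays and arrays of MEFs alone did not overlap, whereas the MEFs + nilotinib and MEFs + DMSO arrays did. The difference in MEFs + ALL + nilotinib was 0.23 over MEFs + DMSO (SE 0.06, limma adjusted p = 0.12) and 0.19 over MEFs + nilotinib (limma adjusted p = 0.342).

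Lifr (probeset 10422822), the LIF receptor gene, showed the same layout with 8.71, 8.63 and 8.69 in MEFs + ALL + nilotinib, 8.59 in MEFs + ALL + DMSO, 8.32, 8.53 and 8.39 in MEFs + nilotinib, and 8.41, 8.32 and 8.31 in MEFs + DMSO. Its difference in MEFs + ALL + nilotinib was 0.33 over MEFs + DMSO (SE 0.07, limma adjusted p = 0.0899) and 0.27 over MEFs + nilotinib (limma adjusted p = 0.281). Il6ra (probeset 10499655), the alpha receptor that confers binding of IL-6, had a different layout. It gave 7.98, 8.30 and 8.11 in MEFs + ALL + nilotinib, 7.69 in MEFs + ALL + DMSO, 7.90, 7.67 and 7.88 in MEFs + nilotinib, and 8.04, 8.03 and 7.95 in MEFs + DMSO. MEFs + ALL + nilotinib overlapped MEFs + DMSO (difference 0.12, limma adjusted p = 0.581) and lay above MEFs + nilotinib without overlap (0.31, limma adjusted p = 0.375).

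Socs3 (probeset 10393449) had 8.34, 8.51 and 8.26 in MEFs + ALL + nilotinib, 8.68 in MEFs + ALL + DMSO, 8.14, 8.16 and 8.25 in MEFs + nilotinib, and 8.16, 8.28 and 8.08 in MEFs + DMSO. The MEFs + ALL + DMSO array was the highest, and MEFs + ALL + nilotinib overlapped MEFs + DMSO, with a difference of 0.20 (SE 0.08, limma adjusted p = 0.304). A second Socs3 probeset (10383010) was dimmer, with group means between 6.64 and 6.67, and differed by -0.02 in MEFs + ALL + nilotinib over MEFs + DMSO (limma adjusted p = 0.947). It did not carry the high value of the MEFs + ALL + DMSO array, where it read 6.66.

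With nilotinib present on both sides, 0 of the 10 genes were called in MEFs + ALL + nilotinib over MEFs + nilotinib, where 0.186% of all probesets were. By unadjusted p under 0.05 there were 7, 6 higher (4.93% of all probesets) and 1 lower (4.34%), and limma with trend and robust and with array weights also called 0. Arrays did not overlap for 8 genes, 7 higher (7.8% of all probesets) and Lif lower (6.62%). In MEFs + nilotinib over MEFs + DMSO, 0 of the 10 genes and 0% of all probesets were called. Il6 was the 1 gene at an unadjusted p under 0.05 (11.2% of all probesets), and limma with trend and robust and with array weights called 0. Il6, Clcf1 and Osmr lay higher in MEFs + nilotinib than in MEFs + DMSO without overlap (13.6% of all probesets), and Osm and Il6ra lower (7.05%). These comparisons share arrays, so their values are not independent of each other.

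**Figure D3:**
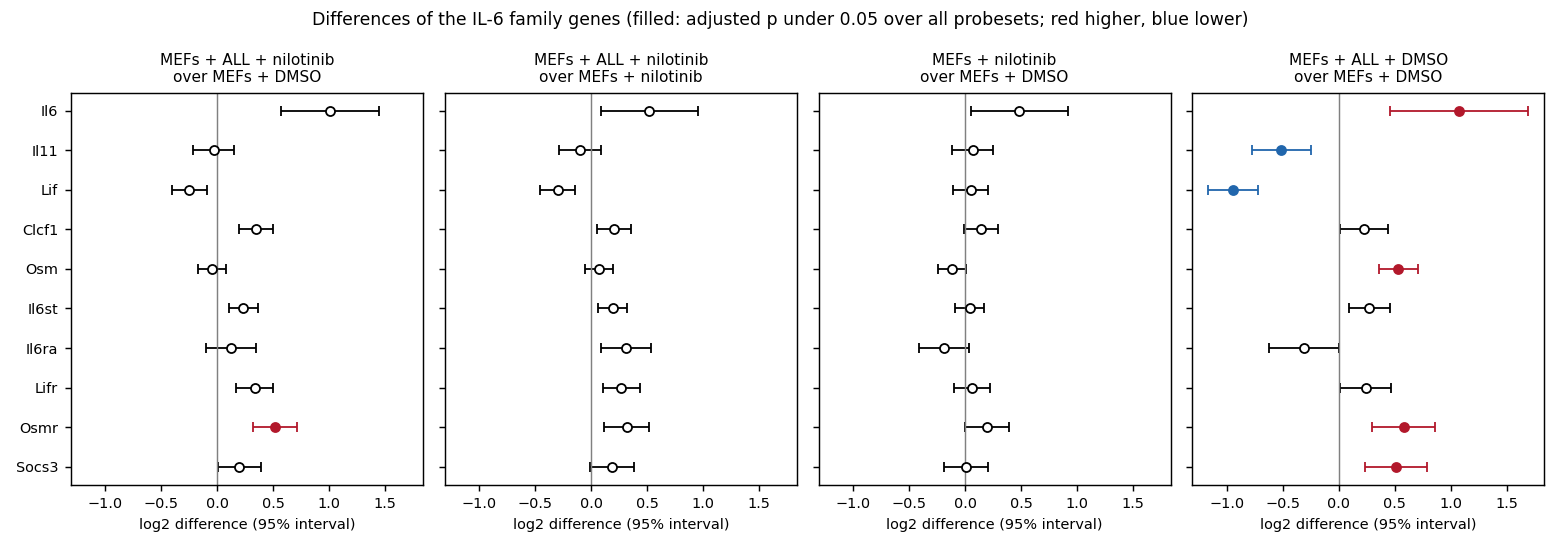
Log2 differences of the 10 genes in 4 comparisons, with 95% intervals from limma, filled where the adjusted p is under 0.05 (red higher, blue lower). Osmr is the single call over MEFs + DMSO under nilotinib, at 0.51, and the MEFs + ALL + DMSO panel has 6 calls that rest on 1 array.

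On the single array of MEFs exposed to ALL cells without nilotinib, Il6, Osmr, Osm and Socs3 were called higher than in MEFs + DMSO and Lif and Il11 lower. Lif had the largest fall, 0.94 on the log2 scale. This test assumes that the lone array varies like the other groups. It called 6 of the 10 genes, where 10.3% of all probesets were called, 4 of them higher (6.67%) and 2 lower (3.59%). The same array held the leukocyte transcripts given above, with 11 of 15 B cell and 13 of 14 pan-leukocyte markers called higher, and their part in these 6 calls was not tested.

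Lif differed by -0.94 (SE 0.10, limma adjusted p = 0.00046) and Il11 by -0.51 (SE 0.11, adjusted p = 0.0268). The linear signal of Lif on that array was 0.519 times its MEFs + DMSO mean and that of Il11 0.7 times. Fibroblast markers summed to a linear signal of 57283 there, against 68290 to 69844 in MEFs + DMSO. Their sums were 64153 to 65434 in MEFs + ALL + nilotinib and 61572.5 to 68319 in MEFs + nilotinib. Marker by marker, 2 of the 12 were called higher on the MEFs + ALL + DMSO array than in MEFs + DMSO and 1 lower. Of all probesets, 6.67% were called higher there and 3.59% lower. The median difference of the 12 markers was -0.18, and that of all probesets was -0.07. The part of the lower sum in the falls of Lif and Il11 was not tested. Osm, whose signal on the other arrays lay within the range of the olfactory and vomeronasal receptor genes, was higher by 0.53 (SE 0.08, limma adjusted p = 0.00372), and Socs3 by 0.51 (SE 0.12, adjusted p = 0.0331). The second Socs3 probeset differed by -0.0045, and the mean of both gave 0.25 (adjusted p = 0.292). Il6 was higher by 1.08 (SE 0.27, limma adjusted p = 0.0408), a call lost in 5 of 9 fits that left out a single array (adjusted p from 0.0143 to 0.098), and Osmr by 0.58 (SE 0.12, adjusted p = 0.0218), lost in 2 of 9 (from 0.0107 to 0.0605). Without single arrays the calls of Il11 (adjusted p from 0.0113 to 0.0662) and Socs3 (from 0.0175 to 0.0808) were lost in 3 of 9 fits each, while those of Lif and Osm held in all 9. All 9 fits kept the lone MEFs + ALL + DMSO array, so they cannot show whether it is typical. Il6st (0.27), Lifr (0.24), Clcf1 (0.23) and Il6ra (-0.31) were not called, with adjusted p from 0.0701 to 0.182.

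Set against each other, both co-cultures differed in Lif and Osm. Lif was higher by 0.69 in MEFs + ALL + nilotinib than on the MEFs + ALL + DMSO array (SE 0.10, limma adjusted p = 0.00364), and Osm was lower, with a difference of -0.58 (SE 0.08, adjusted p = 0.00286). The Osm signals of 5.82 to 5.86 in MEFs + ALL + nilotinib lay below the 95th percentile of the olfactory and vomeronasal receptor genes, 6.29, so the size of its difference is not well determined. Both calls were lost when only these 4 arrays were fitted (adjusted p = 0.139 for Lif and 0.171 for Osm). These were 2 of the 10 genes, where 4.34% of all probesets were called, 0.582% higher and 3.76% lower. For Il6 the difference was -0.07 (95% interval -0.69 to 0.55) and for Osmr -0.07 (95% interval -0.35 to 0.22), intervals that a lone array leaves wide. Il11 differed by 0.48 (adjusted p = 0.0596). The interaction, which compares the effect of ALL cells under nilotinib with that under DMSO, was called for Lif (0.64, SE 0.12, limma adjusted p = 0.0198) and Osm (-0.46, SE 0.10, adjusted p = 0.0339), where 3.95% of all probesets were called, 0.399% higher and 3.55% lower. Without single arrays the interaction of Lif lost its call in 2 of 9 fits (adjusted p from 0.0206 to 0.0581) and that of Osm in 7 of 9 (from 0.0337 to 0.0939).

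The other genes of the pathway were described by 4 lists, beside medians of -0.0042 over all probesets in MEFs + ALL + nilotinib over MEFs + DMSO and -0.07 in MEFs + ALL + DMSO over MEFs + DMSO. The lists, too, were chosen with earlier results of these data known. Of the STAT3 target genes, 3 of 21 measured were called higher in MEFs + ALL + nilotinib over MEFs + DMSO and 0 lower, with a median of 0.26, and 12 were higher and 0 lower at an unadjusted p under 0.05. Of all probesets, 0.627% were called in this comparison, and at an unadjusted p under 0.05 there were 9.5% higher and 6.72% lower. Cebpd, a transcription factor gene of the acute phase response, had log2 signals of 7.57, 7.42 and 7.37 in MEFs + ALL + nilotinib, 7.38 in MEFs + ALL + DMSO, 7.00, 7.00 and 6.92 in MEFs + nilotinib, and 6.85, 6.73 and 6.44 in MEFs + DMSO. All co-cultured arrays were above all arrays of MEFs alone. It rose by 0.78 over MEFs + DMSO (SE 0.11, limma adjusted p = 0.0292). Lbp, which encodes the lipopolysaccharide-binding protein, rose by 0.48 (SE 0.08, adjusted p = 0.0441). Il4ra, the IL-4 receptor alpha chain gene, rose by 0.47 (SE 0.07, adjusted p = 0.0395) and also over MEFs + nilotinib, by 0.52 (adjusted p = 0.0445). No other gene of the 4 lists was called over MEFs + nilotinib. Over MEFs + DMSO, the call of Il4ra was lost in all 9 fits that left out a single array (adjusted p from 0.0508 to 0.169) and those of Cebpd (0.0433 to 0.125) and Lbp (0.0344 to 0.168) in 8 of 9, and the call of Il4ra over MEFs + nilotinib was lost in all 9 (0.0605 to 0.184).

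Of the JAK-STAT genes, 0 of 18 were called in MEFs + ALL + nilotinib over MEFs + DMSO, with a median of 0.08 (4 higher and 2 lower at an unadjusted p under 0.05). Stat3, the main transcription factor below gp130, differed by 0.30 (SE 0.06, limma adjusted p = 0.0769), Socs2, a STAT5-induced feedback gene, by 0.51 (adjusted p = 0.0524) and Sos1, a Ras exchange factor gene, by -0.36 (adjusted p = 0.191). Stat3 read 11.36, 11.34 and 11.31 in MEFs + ALL + nilotinib, 11.29 in MEFs + ALL + DMSO, 11.05, 11.12 and 11.17 in MEFs + nilotinib, and 11.09, 11.02 and 10.99 in MEFs + DMSO, so that co-cultured arrays and arrays of MEFs alone did not overlap. Of the genes that induce Il6 or control its RNA, 0 of 16 were called (median 0.12, 3 higher and 1 lower at an unadjusted p under 0.05), with Nfkbiz, which encodes a nuclear cofactor of NF-kB, at 0.45, Cebpb at 0.30 and Arid5a, whose protein stabilises Il6 RNA, at 0.18. Of the further ligands, receptors and sheddases of the family, 0 of 10 were called and 0 had an unadjusted p under 0.05, with a median of -0.06 and Ctf2, Cntfr and Ebi3 the farthest from 0, at -0.15, -0.12 and -0.11. Limma with trend and robust and with array weights called none of Ctf2, Cntfr and Ebi3 either.

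On the MEFs + ALL + DMSO array, 5 of 18 JAK-STAT genes were called higher than in MEFs + DMSO, led by Socs2 (2.84), Ptpn6 (1.81) and Cish (0.81). Ptpn6 encodes a phosphatase of blood cells, and Cish is a STAT5 target. Of the STAT3 targets 4 of 21 were called higher, with Pim1 at 1.76, Myc at 1.31 and Irf1 at 1.07. Of the Il6 inducers 3 of 16 were, with Tnf at 1.04, Arid5a at 0.61 and Rel at 0.39. Without single arrays the calls of Arid5a (adjusted p from 0.00558 to 0.0962) and Rel (0.0259 to 0.111) were lost in 7 of 9 fits. Of all probesets, 10.3% were called on that array, 6.67% higher and 3.59% lower. None of the 4 lists had a gene called lower, and 0 of the 10 further family genes were called in either direction (1 higher and 2 lower at an unadjusted p under 0.05), where Cntfr differed by -0.43, Ctf1 by -0.31 and Il27 by -0.31. The array carried B cell and leukocyte transcripts as given above, whose part in these calls was not tested.

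**Figure D4:**
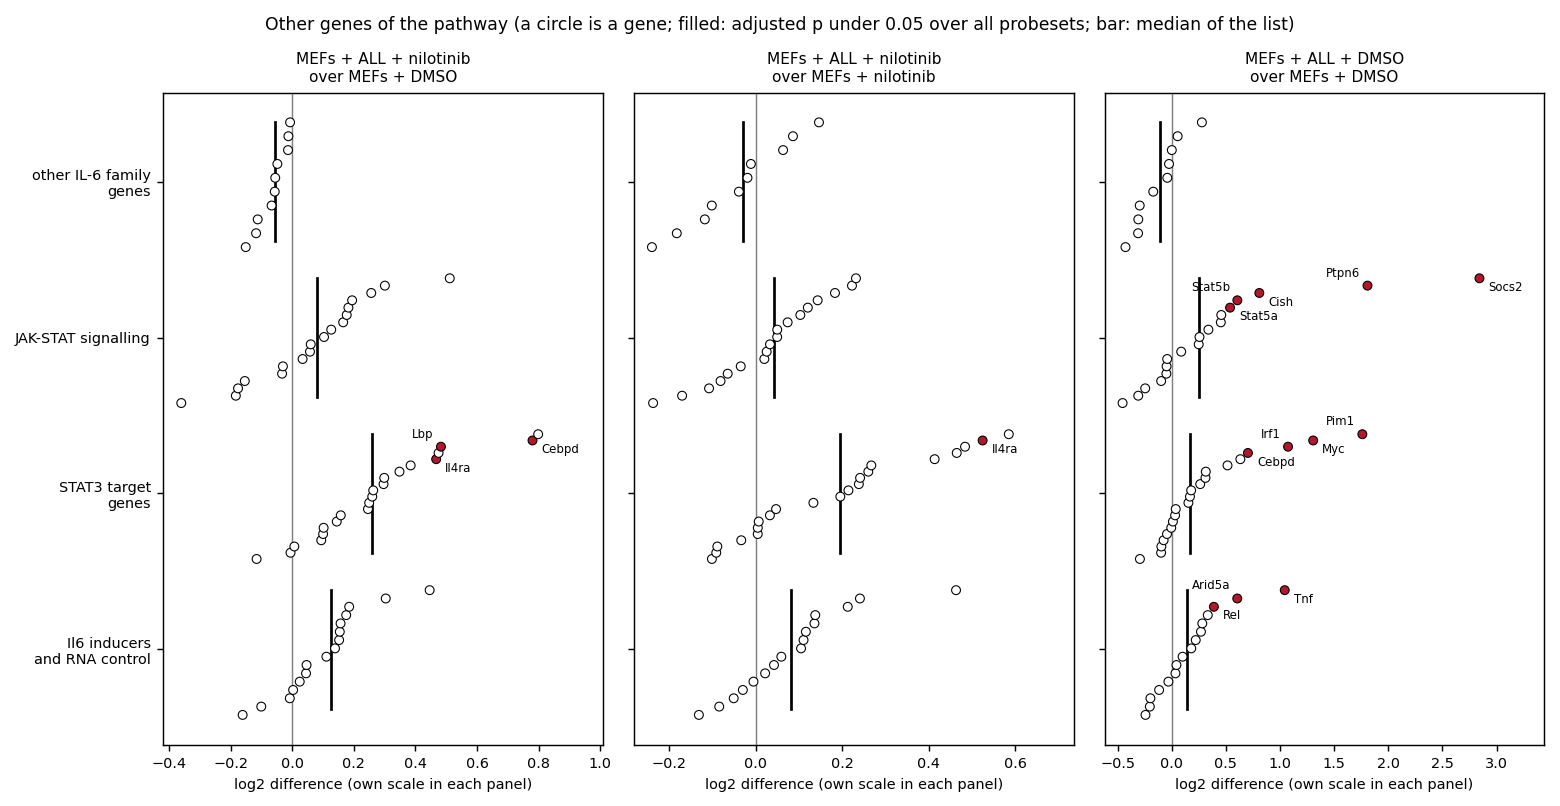
Log2 differences of the genes of 4 pathway lists in 3 comparisons, with a circle for each gene, filled where the adjusted p is under 0.05, and a bar at the median of the list; each panel has its own horizontal scale. STAT3 targets have 3 called genes in MEFs + ALL + nilotinib over MEFs + DMSO, and Socs2 at 2.84 stands farthest out on the MEFs + ALL + DMSO array.

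Among 19937 other genes, those whose log2 signals followed Il6 most closely over the 10 arrays were Casp4, which encodes an inflammatory caspase, Ppa2, Ptrhd1, Cops6 and Nfe2l2, the gene of the transcription factor NRF2. Pearson's r was 0.966 for Casp4 and 0.961 for Nfe2l2, with the others between, and without the MEFs + ALL + DMSO array the 5 values ran from 0.955 to 0.988. Ppa2, a mitochondrial pyrophosphatase gene, rose over MEFs + DMSO in MEFs + ALL + nilotinib, by 0.44 (SE 0.07, limma adjusted p = 0.0469), a call lost in all 9 fits that left out a single array (0.0556 to 0.193). Casp4 differed by 0.61 (adjusted p = 0.0846) and the other 3 by 0.21 to 0.28. Within the family, Osmr followed Il6 with r = 0.957 over 10 arrays and 0.952 over 9, Lifr with 0.897 and 0.901 and Il6st with 0.874 and 0.855, while Lif had -0.535 and -0.492. These correlations describe 10 arrays that share 4 groups, and the 5 genes were picked for their likeness.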

How the data were processed

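RNA of MEFs was measured on Affymetrix Mouse Gene 1.0 ST arrays. The authors deposited log2 probeset signals, RMA-normalized by their legend and made with Partek by their processing notes (version not given in the sources used here). Such normalization pulls arrays to a common distribution and compresses small signals. No other column was used. Of 35557 probesets, 21789 carry 1 gene symbol by the platform annotation, and 21698 of these matched RefSeq genes of GRCm38.p6 by gene ID, with 0 symbols changed. Groups were compared with limma 3.58.1 in R 4.3.3 (lmFit, eBayes, 4 group means, all 10 arrays), with Benjamini-Hochberg adjustment over every probeset. Intervals are at 95%. The number of arrays limits the precision, and signals of different probesets do not rank genes. The fit was tested on simulated data, in which 200 of the 35557 probesets differed between MEFs + ALL + nilotinib and MEFs + DMSO. It called 7.5% of these 200 where they differed by 0.5 on the log2 scale. At a difference of 1 it called 83.5%, and at 2 it called 98.5%. False calls numbered 1 at 0.5, 10 at 1 and 10 at 2. The simulated noise was normal, had the fitted spread of each probeset and was drawn independently for every value. Deviations that the probesets of an array share were therefore absent, and these shares may not hold for the real arrays. Members and gene lists were chosen with earlier results of these data known. All 10 genes were named, with at least 3 genes a list (those called in MEFs + ALL + nilotinib, then the largest differences), the 3 largest on the MEFs + ALL + DMSO array, and the 5 most like Il6. Endothelial and epithelial markers (8 genes each) were also read: 0 of each were called in MEFs + ALL + nilotinib over MEFs + DMSO, and on the MEFs + ALL + DMSO array 2 endothelial genes higher, and 2 epithelial genes higher and 2 lower. The value of 1 pan-leukocyte gene is not reported here. Alternatives were other variance priors, array weights, quantile normalization, median centring, no dim probesets (mean log2 above 5 in a group), fewer arrays, a replicate block and the mean of a gene's probesets.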

Additional observations from a re-analysis of the deposited data

Results flagged for a closer look

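A difference between the effect of ALL cells under nilotinib and under DMSO was called by limma's interaction term for Lif and Osm and for 7 genes named from the pathway lists. Of all probesets, 3.95% were called for this term, 0.399% higher and 3.55% lower. The 7 genes were among those named for the largest differences on the MEFs + ALL + DMSO array. That difference is part of the interaction, so the choice favoured their calls, and their number is not a result about the lists. The calls of Lif, Osm and these 7 genes all rest on the 1 MEFs + ALL + DMSO array, which also carried B cell and leukocyte transcripts, whose part was not tested. For Lif the interaction was 0.64 (adjusted p = 0.0198), with an effect of -0.30 under nilotinib and -0.94 under DMSO. For Osm it was -0.46 (adjusted p = 0.0339), with an effect of 0.07 under nilotinib and 0.53 under DMSO. The largest was that of Socs2, -2.61 (adjusted p = 2.99e-05, 0.23 under nilotinib and 2.84 under DMSO). Ptpn6 had -1.78 (adjusted p = 0.000249) and Pim1 -1.71 (adjusted p = 7.29e-05). For Myc it was -1.30 (adjusted p = 0.00182), for Tnf -1.13 (adjusted p = 0.0113), for Irf1 -0.84 (adjusted p = 0.0259) and for Cish -0.69 (adjusted p = 0.0127). Without single arrays Irf1 lost its call in 6 of 9 fits (adjusted p from 0.0108 to 0.0679), while those of Socs2, Ptpn6, Pim1, Myc, Tnf and Cish held in all 9. Each of these fits kept the lone MEFs + ALL + DMSO array and cannot show whether it is typical.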

How the results depend on the processing

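In MEFs + ALL + nilotinib over MEFs + DMSO, where 1 of the 10 genes was called, limma with trend and robust called 4 (adding Il6 at an adjusted p of 0.046, Clcf1 and Il6st), array weights called 5 (with Lifr too), and the groups compared only called 0. With the replicate number as a block, 0 were called and Osmr had an adjusted p of 0.16. Deviations of arrays with the same number correlated from -0.293 to 0.241 over 9 pairs and those of other pairs from -0.259 to 0.389. What arrays with the same number share is not stated and was not tested. The block changed no other call of the 10 genes. The calls of Cebpd, Lbp, Il4ra and Ppa2 were also lost with the block and with the groups compared only. Leaving out single arrays gave 0 to 1 calls. The interaction had 1 call in place of 2 with trend and robust and with median centring, where Osm lost its call, 3 with array weights, where Il6ra gained one (adjusted p = 0.0421), and 0 to 2 without single arrays. Over MEFs + ALL + DMSO, 0 in place of 2 were called in MEFs + ALL + nilotinib with the groups compared only, while Il11 gained a call with array weights (adjusted p = 0.0259) and with dim probesets left out (adjusted p = 0.0471). In MEFs + ALL + DMSO over MEFs + DMSO, 6 became 2 to 6 without single arrays, and quantile normalization, which left 4, lost Il6 (adjusted p = 0.0534) and Socs3 (adjusted p = 0.087). The groups compared only also left 4 there, without Il11 (adjusted p = 0.0568) and Socs3 (adjusted p = 0.0722), while Il6st gained a call with trend and robust (adjusted p = 0.0205) and with array weights (adjusted p = 0.0312). Leaving out the MEFs + ALL + DMSO array could not change the call of Osmr, since a lone array adds nothing to the estimated spread. Comparisons that use that array have no fit without it, it carries no replicate number for the block, and the interaction needs all 4 groups.

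Signs turned only for differences that were not called. With array weights this was Socs3 in MEFs + nilotinib over MEFs + DMSO (-0.00889). With quantile normalization it was Il6st in MEFs + nilotinib over MEFs + DMSO (-0.0178), in MEFs + ALL + nilotinib over MEFs + ALL + DMSO (0.0331) and in the interaction (0.0510), and Clcf1 in the interaction (0.0425). Without single arrays, Il11 ranged from -0.0677 to 0.00367 in MEFs + ALL + nilotinib over MEFs + DMSO and Socs3 from -0.0390 to 0.0617 in MEFs + nilotinib over MEFs + DMSO. In MEFs + ALL + nilotinib over MEFs + ALL + DMSO, Il6 ranged from -0.280 to 0.0594 and Osmr from -0.113 to 0.0087. In the interaction, Clcf1 ranged from -0.0669 to 0.0141 and Lifr from -0.0159 to 0.0892. The cause was not tested.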
